A study of Mus musculus with 8 samples.

Results

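Natriuretic peptides and the other genes that the ventricle is known to switch on under strain were examined in mouse heart RNA. The set holds 10 genes, taken by symbol through the NCBI Gene numbers of the deposited tables: Nppa, Nppb, Myh7, Acta1, Ankrd1, Xirp1, Xirp2, Fhl1, Gdf15 and Mstn. All 10 were listed, out of 18215 genes in the tables. Polyadenylated RNA had been sequenced from hearts of 2 genotypes, 4 libraries each: Carns transgenic mice (TG) and wild-type mice (WT). Strain, sex, age, the promoter of the transgene and whether each library is a separate animal are not given in the sources used here, so each p-value reflects the spread among these libraries alone, and that spread may be technical. In bulk tissue, fewer cells of a type and less RNA per cell cannot be told apart.

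Atrial natriuretic peptide (Nppa) and B-type natriuretic peptide (Nppb) are hormones that myocytes secrete when they are stretched. They act on guanylyl cyclase receptors to raise cGMP, and lower blood volume and pressure. In the adult mouse Nppa is mainly an atrial transcript, and the ventricle re-expresses it together with the fetal contractile isoforms Myh7 and Acta1 in hypertrophy and failure. Ankrd1, Fhl1, Xirp1 and Xirp2 encode proteins of the sarcomere and the intercalated disc that respond to strain, while Gdf15 and Mstn encode secreted members of the TGF-beta family.

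None of these genes separated TG from WT hearts. Of the 10, 9 passed the filter on low counts (all but Mstn), and 0 of 9 passed an adjusted p of 0.05 in edgeR's quasi-likelihood test with Benjamini-Hochberg adjustment over all 12670 genes tested, where 0.0158% of the genes passed. None had an unadjusted p under 0.05 either, against 3.49% of all genes, and DESeq2 called none, against 0.118% of all genes. In no member were the 4 TG values all above or all below the 4 WT values, which was the case in 2.53% of all genes. Of the tested members, 5 lay on the higher and 4 on the lower side in TG, and the median fold change was 0.07 on the log2 scale, beside -0.0017 over all genes tested. What stood out was the spread between libraries. Nppa and Acta1 varied more between the 8 libraries than 99.3% of the tested genes (standard deviation of log2 values, each), and Myh7 more than 97.1%. Xirp1 was steadier than most, with 6.42% of genes below it.

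Carns1 itself, carnosine synthase, checked the labels: it stood at 19071 to 24288 counts per 1000000 (CPM, with TMM-scaled library sizes) in TG, while WT had 44.5 to 73.3. Library totals ran from 6261193 to 7897629 expected counts. Both groups hold 2 libraries above and 2 below the midpoint of that range, TG replicates 1 and 3 and WT replicates 1 and 2 being the deeper ones. The list of ventricular myocyte markers summed to 42782 to 54317 CPM in TG and 40782 to 54122 in WT, so the heart label held. Myh6, a myosin heavy chain of the adult mouse heart, alone stood at 22833 to 32263 CPM. The sum was therefore not used to tell the chambers apart. Atrial muscle transcripts set some libraries apart. The sum of Myl7, Myl4 and Sln (atrial myosin light chains and sarcolipin) was 531 CPM in the second TG library and 125 in the fourth, 55.0 and 40.7 in WT replicates 1 and 4, and between 3.61 and 7.83 in the other 4 libraries. All 9 genes of the atrial list had a higher mean in TG, and 0 of the 7 tested passed the threshold. TG libraries summed to 470.0 to 1331 CPM over that list and WT libraries to 503 to 689.8, and the atrial hormone Bmp10 never exceeded 1 count. TG replicate 2 also held adipocyte transcripts, summing to 889.5 CPM against 2.22 to 45.2 in the other libraries. All 7 macrophage markers had a lower mean in TG, with sums of 383 to 629 CPM beside 561 to 668 in WT. In none of the 12 marker lists was a gene called.

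The upstream sequences of 4 genes are shown. Nppa and Nppb lie next to each other on chromosome 4, and Ankrd1 was highest in the same pair of libraries, TG replicate 2 and WT replicate 4. Acta1 was highest in WT replicate 4 too, but its second highest library was TG replicate 4. Xirp2 and Fhl1, not shown, had the same highest pair as Ankrd1. Each stretch is the 250 bases before the annotated gene start, from RefSeq on GRCm38.p6, a later build than the mm8 named in the submitters' processing notes. Capitals mark exact matches, on either strand, to TATAAA (the TATA box), GATAA (the core bound by GATA factors), CATTCC (the M-CAT element of TEAD factors), AAGTG (a core bound by Nkx2-5) and the CArG box of serum response factor. Entries were found for 9 of the 10 genes.
Nppa (chr4:148000472-148000721, plus strand): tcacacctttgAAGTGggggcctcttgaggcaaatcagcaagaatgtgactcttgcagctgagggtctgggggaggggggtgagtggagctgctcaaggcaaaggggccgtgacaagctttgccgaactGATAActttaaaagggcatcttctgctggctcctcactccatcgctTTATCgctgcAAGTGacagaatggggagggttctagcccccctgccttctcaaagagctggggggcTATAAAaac
Nppb (chr4:147985650-147985899, plus strand): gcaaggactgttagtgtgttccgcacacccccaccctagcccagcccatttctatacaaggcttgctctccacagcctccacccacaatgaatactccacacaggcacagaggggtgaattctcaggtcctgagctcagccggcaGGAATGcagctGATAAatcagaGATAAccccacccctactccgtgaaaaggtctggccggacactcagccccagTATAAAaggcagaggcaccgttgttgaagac
Ankrd1 (chr19:36119845-36120094, minus strand): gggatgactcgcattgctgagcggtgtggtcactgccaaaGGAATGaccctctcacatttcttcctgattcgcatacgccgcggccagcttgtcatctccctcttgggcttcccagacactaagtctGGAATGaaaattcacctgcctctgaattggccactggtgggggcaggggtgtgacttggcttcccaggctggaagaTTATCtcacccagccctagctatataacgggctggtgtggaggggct
Acta1 (chr8:123894776-123895025, minus strand): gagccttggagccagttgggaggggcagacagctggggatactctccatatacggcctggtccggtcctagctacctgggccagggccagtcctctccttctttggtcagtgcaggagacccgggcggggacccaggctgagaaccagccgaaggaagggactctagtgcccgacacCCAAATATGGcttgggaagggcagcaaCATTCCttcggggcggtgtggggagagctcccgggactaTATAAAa
The stretch before Nppa held GATAA matches starting 121 and 75 bases before the start and AAGTG matches at 239 and 65. That of Nppb held GATAA at 94 and 83 and CATTCC at 105. Ankrd1 had CATTCC at 210 and 123 and GATAA at 47, and Acta1 had CATTCC at 46 and a CArG box at 73. TATAAA began 9 bases before the start of Nppa, 31 before that of Nppb and 7 before that of Acta1. Among 32536 mouse upstream stretches of the same length, 22.5% held GATAA, 12.6% CATTCC, 40.6% AAGTG, 12.3% TATAAA and 1.48% a CArG box. Xirp2 and Fhl1, which had the same highest pair of libraries as Ankrd1, held no GATAA and no CATTCC match. Xirp2 had 1 AAGTG match and no TATAAA. Fhl1, with 2 annotated starts, had 1 TATAAA, 1 AAGTG and 1 CArG box match. Genes with the same highest pair thus did not all hold the same motifs. The matches are descriptions of these letters and were not tested as binding sites.

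Nppa, which encodes atrial natriuretic peptide, was split within TG. It stood at 66.2, 324, 56.7 and 90.2 CPM in TG replicates 1 to 4 and at 143, 190.3, 143 and 219 CPM in WT replicates 1 to 4. Thus 3 of 4 TG libraries lay below every WT library, and TG replicate 2 lay above them all. The means were 134 ± 127 CPM for TG and 174 ± 37.5 for WT (SD, n = 4 each), giving a log2 fold change of -0.38 (SE 0.44, edgeR, Benjamini-Hochberg adjusted p = 1). On a log scale, where 1 high library weighs less, the difference was larger, at -0.74 with limma on log2(FPKM + 1) (adjusted p = 1).

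TG replicate 2, the library with the high Nppa value, was also the one with the most atrial transcripts. Within TG, Nppa and the atrial sum had the same order. Yet TG replicate 4, second in the atrial sum, had less Nppa than every WT library (90.2 CPM). Among WT libraries, replicate 1 had the highest atrial sum (55.0 CPM) and the lowest Nppa (143 CPM). The part of atrial RNA in the Nppa values was not tested. Without TG replicate 2 the log2 fold change of Nppa was -1.29 (SE 0.19, unadjusted p = 2.61e-05) and the edgeR Benjamini-Hochberg adjusted p was 0.134. It moved towards 0 by more than 1.5 times when another library was left out: -0.12 with TG replicate 3 removed, -0.15 with TG replicate 1, -0.23 with TG replicate 4 and -0.25 with WT replicate 4. Without both TG replicates 2 and 4, which leaves 2 TG against 4 WT libraries, it was -1.50 (SE 0.19, edgeR adjusted p = 0.035), and Nppa was then the 1 member called, where 0.0154% of all genes passed. That fit removes the library with the highest Nppa and takes atrial RNA out of TG alone, since WT replicates 1 and 4, with 55.0 and 40.7 CPM of the atrial sum, stay in, so its p is no separate evidence of a difference. With the level of Myl7, Myl4 and Sln as a covariate, a fit chosen after seeing the data, the log2 fold change was -1.11 (SE 0.30, edgeR unadjusted p = 0.0028, adjusted p = 0.668). Over all the alternatives the adjusted p of Nppa ran from 5.84e-05 to 1. In the libraries with the least atrial RNA, Nppa stood at 66.2 and 56.7 CPM in TG replicates 1 and 3 and at 190.3 and 143 in WT replicates 2 and 3. This choice again leaves out TG replicates 2 and 4, so it is no separate evidence, and no test was run on it. Depth was not matched either, as WT replicate 3 alone among them is a shallower library.

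**Figure D1:**
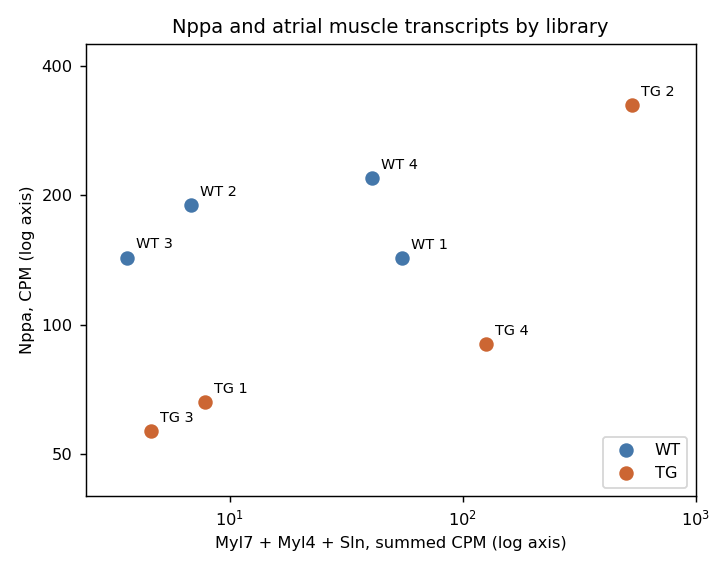
Nppa (CPM, log axis) against the summed CPM of the atrial transcripts Myl7, Myl4 and Sln (log axis), 1 point per library. TG replicates 1, 3 and 4 lie at 56.7 to 90.2 CPM of Nppa, below the 4 WT libraries at 143 to 219, while TG replicate 2 lies at 324 CPM with an atrial sum of 531.

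The depth of the libraries moved with the same split, because TG replicates 2 and 4 are both shallower. Within the deeper libraries (2 in each group) the log2 fold change of Nppa was -1.44 (SE 0.14, edgeR, Benjamini-Hochberg adjusted p = 5.84e-05). Within the shallower libraries it was 0.19 (SE 0.45, edgeR adjusted p = 0.988). The test of the difference between these values gave -1.63 (SE 0.57, edgeR unadjusted p = 0.014, adjusted p = 0.919), and no gene passed in that test. In the TG group depth and atrial RNA cannot be told apart, since the same 2 libraries are shallower and high in atrial RNA. In the deeper libraries Nppa and Acta1 were the 2 members called, where 0.463% of all genes passed, and in the shallower libraries no member was, where 0.0314% did. The deeper set leaves out TG replicates 2 and 4, and also WT replicate 4, which had the highest Acta1. Its p-values are thus no separate evidence of a difference.

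Nppb, the gene of B-type natriuretic peptide, varied less, with 46.3% of the tested genes steadier than it. It stood at 239, 330.5, 249.7 and 261 CPM in TG replicates 1 to 4 and at 232, 274, 315 and 340.4 in WT replicates 1 to 4. The groups overlapped over most of their range, with means of 270.0 ± 41.3 and 290.4 ± 47.5 CPM (SD, n = 4 each). The log2 fold change was -0.11 (SE 0.14), and leaving out 1 library gave -0.22 (TG replicate 2) to -0.02 (WT replicate 4). Per length Nppb exceeded Nppa in every library. The ratio of Nppb to Nppa in FPKM (reads per kilobase of gene and per 1000000 reads) was 3.99, 1.13, 4.87 and 3.20 in TG replicates 1 to 4 and 1.80, 1.59, 2.43 and 1.72 in WT replicates 1 to 4. So 3 TG libraries had a higher ratio than any WT library and TG replicate 2 a lower one, a description with no test.

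**Figure D2:**
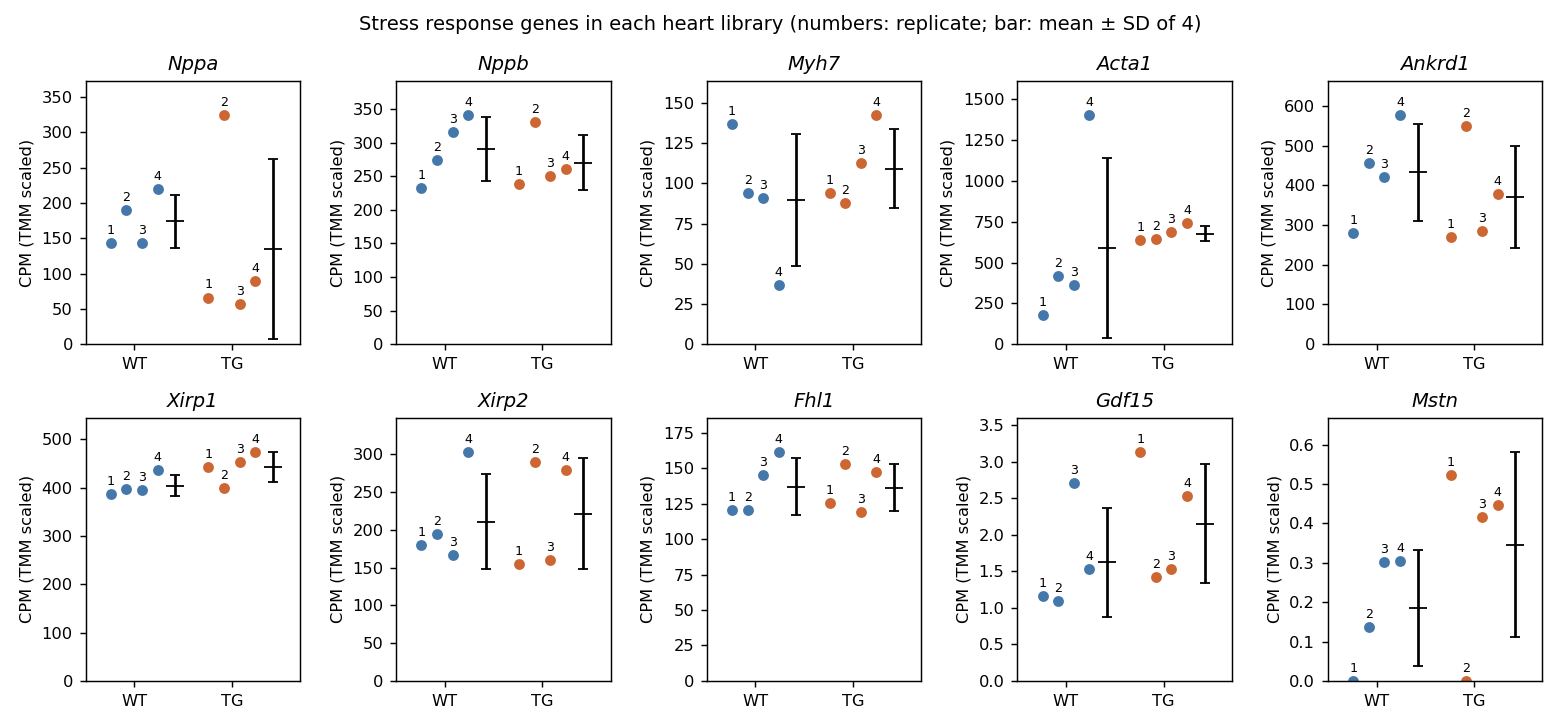
CPM of each of the 10 genes in the 8 libraries, with the replicate number above each point and the group mean ± SD (n = 4) as a bar. Nppa in TG replicate 2 (324 CPM) and Acta1 in WT replicate 4 (1401 CPM) stand far from the rest of their groups.

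None of the other genes of the natriuretic peptide system passed the test. Nppc (C-type peptide) reached at most 4 counts in a library and Ostn (osteocrin, a ligand of the clearance receptor) at most 2, so neither was tested. Of 7 genes that process or break down the peptides, 0 were called. Ide, the insulin-degrading enzyme, averaged 125 ± 17.9 CPM in TG hearts against 142 ± 27.1 in WT hearts, and Furin, a proprotein convertase, 234 ± 21.5 and 216 ± 8.54 (SD, n = 4 each). Of 12 genes of the receptors and cGMP signalling, 0 were called, with 6 positive and 6 negative fold changes. The cGMP phosphodiesterase Pde9a averaged 4.97 ± 0.29 CPM in TG hearts against 6.15 ± 0.82 in WT hearts, the clearance receptor Npr3 19.3 ± 4.75 and 16.9 ± 3.77, and the abundant calcium pump regulator Pln 4139.9 ± 642 and 4126 ± 388 (SD, n = 4 each).

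The contractile isoforms of the fetal programme moved in opposite directions in 2 WT libraries. Relative to each gene's mean over 8 libraries, the log2 CPM of Myh7 differed by 0.56 and that of Acta1 by -1.61 in WT replicate 1, while in WT replicate 4 they differed by -1.33 and 1.36. Myh7, the slow (beta) cardiac myosin heavy chain, stood at 93.8, 87.7, 113 and 142 CPM in TG replicates 1 to 4 and at 137, 93.7, 90.8 and 36.8 in WT replicates 1 to 4. WT replicate 4 was the lowest of all libraries, and the others overlapped. The means were 109 ± 24.5 and 89.6 ± 41.1 CPM (SD, n = 4 each), giving a log2 fold change of 0.28 (SE 0.29, edgeR, Benjamini-Hochberg adjusted p = 1). Without WT replicate 4 it was 0.02 and without WT replicate 1 it was 0.57, and within the deeper and shallower libraries -0.16 and 0.86.

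Myh7 was a minor isoform beside Myh6, the fast (alpha) heavy chain of the adult mouse heart. Its share of the summed FPKM of both was 0.339%, 0.366%, 0.349% and 0.578% in TG replicates 1 to 4 and 0.443%, 0.358%, 0.394% and 0.161% in WT replicates 1 to 4. The highest share was in TG replicate 4 and the lowest in WT replicate 4. The mean difference was 0.069 percentage points (exact two-sided permutation test, p = 0.543, n = 4 each, where the smallest p possible is 0.029). The genes are near-identical, so these shares depend on how shared reads were divided.

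Acta1, skeletal alpha actin, had the widest spread of log2 values among the members. It stood at 638, 645, 687 and 741 CPM in TG replicates 1 to 4 and at 179, 415, 362 and 1401 in WT replicates 1 to 4. The 4 TG values lay close together, above 3 WT libraries and below WT replicate 4. The means were 678 ± 47.3 and 589.6 ± 550.5 CPM (SD, n = 4 each), giving a log2 fold change of 0.20 (SE 0.45, edgeR, Benjamini-Hochberg adjusted p = 1).

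That value rests on single WT libraries. Without WT replicate 4 the log2 fold change of Acta1 was 1.09 (SE 0.22, edgeR unadjusted p = 3.87e-04, adjusted p = 0.237), and without WT replicate 1 it was -0.10. Within the deeper libraries it was 1.16 (SE 0.23, edgeR Benjamini-Hochberg adjusted p = 0.038) and within the shallower libraries -0.35 (edgeR adjusted p = 0.985). The deeper set also leaves out WT replicate 4, so its p is no separate evidence of a difference. The difference between the depth classes was 1.51 (SE 0.64, edgeR unadjusted p = 0.036, adjusted p = 0.964). Over all the alternatives the adjusted p of Acta1 ran from 0.038 to 1. As a share of Acta1 plus Actc1 (cardiac alpha actin) in FPKM, Acta1 held 3.50%, 3.65%, 3.70% and 4.41% in TG replicates 1 to 4 and 0.995%, 2.15%, 2.05% and 7.68% in WT replicates 1 to 4. The mean difference was 0.59 percentage points (exact two-sided permutation test, p = 0.771, n = 4 each), with the same caution on near-identical genes.

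**Figure D3:**
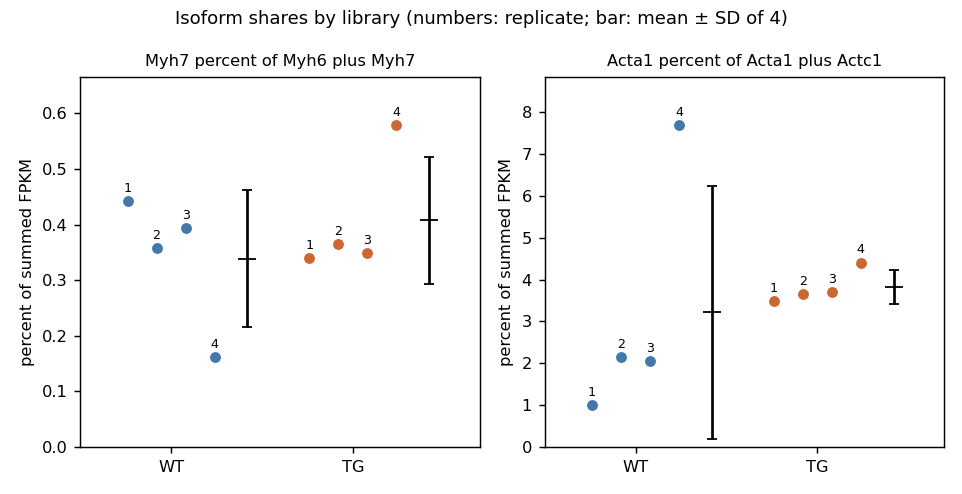
Share of Myh7 in Myh6 plus Myh7 and of Acta1 in Acta1 plus Actc1 (percent of summed FPKM) in each library, with the replicate number and the group mean ± SD (n = 4). WT replicate 4 has the lowest Myh7 share (0.161%) and the highest Acta1 share (7.68%).

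Skeletal muscle markers were looked at beside Acta1, since skeletal muscle expresses it strongly. All 14 markers were listed, 9 with a higher mean in TG, and their sum reached 43.8 to 100.3 CPM across TG libraries and 27.2 to 85.4 across WT libraries. Most of it was Myl1, a fast light chain also known from atrial and fetal muscle, at 82.3 CPM in TG replicate 2 and 74.7 in WT replicate 4. The sum was 85.4 CPM in WT replicate 4 and 27.2 to 40.5 in the other WT libraries. Of the 14 markers, Myod1, Myog, Myh2 and Tnnc2 never exceeded 3 counts in any library. The part of skeletal muscle RNA in the Acta1 value of WT replicate 4 was not tested.

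Of 12 tested genes in the list of sarcomere isoform partners 0 were called, and among the 10 that are no members 3 were on the higher and 7 on the lower side in TG, the median being -0.03 (log2). The ventricular light chain Myl3 averaged 5374 ± 877 CPM in TG hearts against 6266 ± 962 in WT hearts, smooth muscle actin Acta2 361 ± 36.4 and 424 ± 218, and the ventricular light chain Myl2 8933 ± 525 and 8957 ± 942 (SD, n = 4 each). Acta2 was also highest in WT replicate 4, at 750.3 CPM, against 311 to 398 in the other libraries. In that library the sum of smooth muscle and pericyte markers, which include Acta2, was 1716 CPM, against 1046 to 1262 elsewhere. Its part in the Acta1 value was not tested.

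Ankrd1, an ankyrin repeat protein that binds titin and is induced by stretch, was highest in the same pair of libraries as both natriuretic peptides. It stood at 270.2, 549.9, 286 and 378 CPM in TG replicates 1 to 4 and at 279.8, 455, 420.4 and 576 in WT replicates 1 to 4. TG replicate 2 and WT replicate 4 were the highest libraries, as they were for Nppa, Nppb, Xirp2 and Fhl1. Those libraries also had the lowest totals, 6261193 and 6277698 counts, and the part of depth in this order was not tested. Over all tested genes their deviations from the group means correlated at 0.22. How many of all tested genes had the same highest pair was not counted, so the shared order is a description only. The means of Ankrd1 were 371 ± 128 and 433 ± 122 CPM (SD, n = 4 each), giving a log2 fold change of -0.22 (SE 0.24). Without TG replicate 2 it was -0.48 (edgeR unadjusted p = 0.043, Benjamini-Hochberg adjusted p = 1) and without WT replicate 1 -0.38. It was closer to 0 without TG replicate 1 (-0.10), TG replicate 3 (-0.12) or WT replicate 4 (-0.06).

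Fhl1, a LIM domain protein of the titin N2B region and a sensor of biomechanical stress, varied less between libraries than most genes. Its TG values covered 119 to 153 CPM and its WT values 120.4 to 161, with means of 136 ± 16.4 and 137 ± 20.0 (SD, n = 4 each). Its log2 fold change was -0.0060 (SE 0.13). Of 15 tested genes among titin ankyrin repeat, LIM and Z disc strain sensors 0 were called. On the lower side in TG lay 13, Ankrd1 and Fhl1 among them. The median of the list was -0.12 (log2), beside -0.0017 over all genes tested, and whether the list moved as a set was not tested. Csrp3, muscle LIM protein, averaged 884 ± 63.4 CPM in TG hearts against 1031 ± 73.7 in WT hearts (edgeR unadjusted p = 0.048, Benjamini-Hochberg adjusted p = 1). All 4 of its TG values lay below the 4 WT values, and 2.53% of all genes tested had groups apart in either direction. Fhl2, another LIM protein, stood at 1253 ± 54.5 CPM for TG and 1436 ± 125 for WT, and Myoz2, a calcineurin-binding Z disc protein, at 1265 ± 95.5 and 1405 ± 223 (SD, n = 4 each).

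Xirp1 and Xirp2 encode Xin proteins, actin-binding repeats at the intercalated disc. Xirp1 was the steadiest member, at 443, 399, 454 and 474 CPM in TG replicates 1 to 4 and at 388, 398, 395 and 437 in WT replicates 1 to 4. In CPM 3 TG libraries exceeded every WT library and TG replicate 2 lay among them, but in FPKM only 1 TG library, replicate 4 at 82.0, exceeded the highest WT value of 76.9. Its log2 fold change of 0.13 (SE 0.10) had the smallest p of the members (edgeR unadjusted p = 0.205, Benjamini-Hochberg adjusted p = 1).

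Xirp2 took levels that cut across the groups. It stood at 155, 289.7, 160.0 and 279.6 CPM in TG replicates 1 to 4 and at 179.7, 194, 166 and 303 in WT replicates 1 to 4. TG replicates 2 and 4 and WT replicate 4 were high, and all 3 are shallower libraries, whereas WT replicate 3, also shallower, was low. The log2 fold change was 0.07 (SE 0.23), and ran from -0.09 without TG replicate 2 to 0.29 without WT replicate 4. Of 15 tested genes in the list of Xin partners 0 were called. Filamin C (Flnc), an actin crosslinker that binds Xin, averaged 648 ± 62.5 CPM in TG hearts against 525 ± 40.6 in WT hearts (edgeR unadjusted p = 0.014, Benjamini-Hochberg adjusted p = 1). All 4 of its TG values lay above the 4 WT values, where 2.53% of all genes tested had groups apart in either direction. Ctnna3, a catenin of the intercalated disc, stood at 17.2 ± 2.50 CPM for TG and 14.4 ± 1.34 for WT, and the myofibril assembly protein Nrap at 840.0 ± 104 and 871 ± 113 (SD, n = 4 each).

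**Figure D4:**
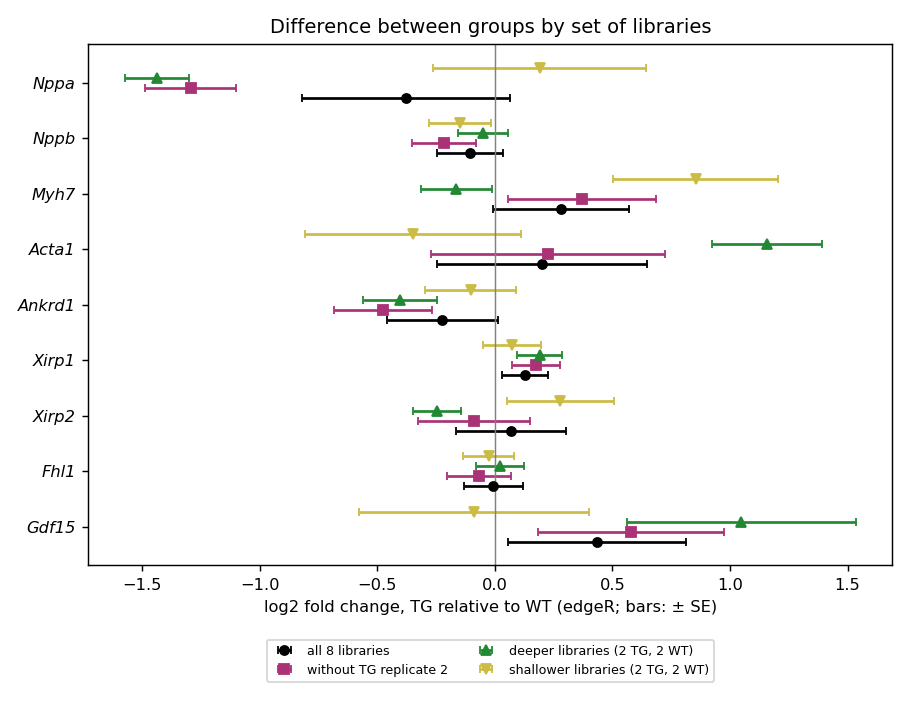
Log2 fold change of TG relative to WT (± SE, edgeR) for the 9 tested genes with all 8 libraries, without TG replicate 2, and within the deeper and the shallower libraries. Nppa moves from -0.38 to -1.29 without TG replicate 2, and Acta1 from 1.16 in the deeper to -0.35 in the shallower libraries.

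The secreted TGF-beta family members were scarce. Gdf15, a stress-induced hormone that acts on the hindbrain to reduce food intake, had 24, 9, 11 and 17 counts in TG replicates 1 to 4 and 9, 8, 18 and 10 in WT replicates 1 to 4. These correspond to 2.15 ± 0.82 CPM for TG, beside 1.62 ± 0.75 for WT (SD, n = 4 each), with overlapping groups. TG exceeded WT by 0.43 on the log2 scale (SE 0.38, adjusted p = 1 with edgeR and Benjamini-Hochberg adjustment). The difference was 0.79 without WT replicate 3 and 0.19 without TG replicate 1, and 0.28 without WT replicate 2. Mstn, myostatin, which limits muscle growth, had 4, 0, 3 and 3 counts in TG and 0, 1, 2 and 2 in WT. A floor of 3 counts amounts to 0.386 to 0.476 CPM in these libraries, and every library but TG replicate 1 lies at or under it, so no fold is given for Mstn. Of 12 tested genes of this family, its antagonists and receptors, 0 were called. The antagonist Fstl3 averaged 9.42 ± 2.28 CPM in TG hearts against 12.2 ± 2.22 in WT hearts, and the activin receptor Acvr2b, which also binds myostatin, 12.3 ± 0.81 and 10.8 ± 0.48 (SD, n = 4 each).

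Regulators of these genes were examined last. Of 22 transcription factors and cofactors known to act on natriuretic peptide or fetal gene promoters 0 were called, 12 on the higher and 10 on the lower side in TG, the median being 0.0088 (log2). The actin-regulated coactivator Mrtfb averaged 69.9 ± 6.09 CPM in TG hearts against 57.5 ± 9.96 in WT hearts, Nfatc4, a calcineurin-dependent factor, 11.1 ± 1.01 and 9.36 ± 0.42 with all 4 TG values above the 4 WT values, and the homeobox factor Nkx2-5 143 ± 11.3 and 145 ± 19.1 (SD, n = 4 each). Of 18 tested genes in a list of other hypertrophy and strain genes 0 were called. In that list the protease inhibitor Timp1 averaged 4.80 ± 1.65 CPM in TG hearts against 3.14 ± 1.02 in WT hearts, the ubiquitin hydrolase Uchl1 11.8 ± 1.68 and 9.61 ± 0.70, and desmin (Des), the muscle intermediate filament protein, 3709 ± 368 and 3885 ± 309.9 (SD, n = 4 each). Over the 9 lists, 2 of 104 tested genes that are no members had an unadjusted p under 0.05, Csrp3 and Flnc, and none was called. Over all genes 3.49% had such a p and 0.0158% were called, so the lists held no more low p-values than the background. In 3 of the 104 (Csrp3, Flnc and Nfatc4) the groups did not overlap, which is near the 2.53% of all genes tested.

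In FPKM over all 8 libraries the members ranked from Acta1 (432 ± 260.5) and Nppb (369 ± 63.9) through Ankrd1 (228 ± 72.3) and Nppa (184 ± 108) to Xirp1 (71.3 ± 6.25) and Fhl1 (58.3 ± 8.92; SD, n = 8). Xirp2 followed at 17.8 ± 5.65 FPKM, Myh7 at 16.1 ± 5.41, Gdf15 at 1.76 ± 0.73 and Mstn at 0.099 ± 0.074 (SD, n = 8). The order was fixed at some steps only. Nppb exceeded Ankrd1 in 8 of 8 libraries, Xirp1 exceeded Fhl1 in 8 and Myh7 exceeded Gdf15 in 8. Fhl1 also exceeded Xirp2 in 8, Gdf15 exceeded Mstn in 8, and Nppa exceeded Xirp1 in 7. Acta1 exceeded Nppb in 5 of 8, Ankrd1 exceeded Nppa in 6 and Xirp2 exceeded Myh7 in 3. The order of these last neighbours thus varied between libraries, and no test compared the levels.

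**Figure D5:**
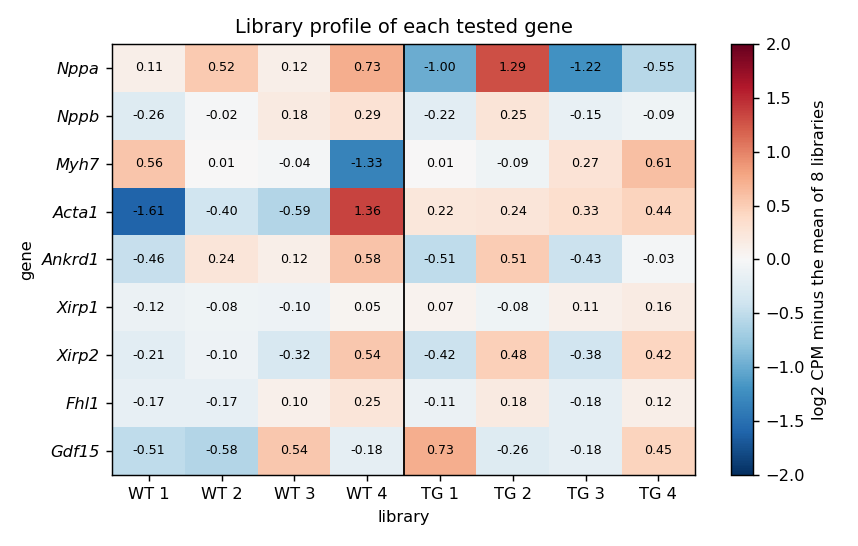
Log2 CPM of the 9 tested genes in each library, as the difference from the gene's mean over 8 libraries. TG replicate 2 and WT replicate 4 have the highest values of Nppa, Nppb, Ankrd1, Xirp2 and Fhl1, while Myh7 is lowest in WT replicate 4 (-1.33).

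The genes nearest to each variable member were taken over the 8 libraries by the root mean square difference of centred log2 CPM, for members with a standard deviation of at least 0.5. They were picked from all tested genes for closeness over these same libraries. A shared extreme thus follows from the choice and is no evidence of a shared cause. Nearest to Nppa were Rbm47, Igsf23 and Car5b, 3 transcripts of low level, at 0.39, 0.40 and 0.46. Nearest to Myh7 were Penk, which encodes proenkephalin, 5031426D15Rik and Dusp5, a phosphatase of ERK kinases, at 0.14, 0.22 and 0.25. Penk stood at 9.39 to 12.8 CPM in TG, at 9.78 to 13.4 CPM in WT replicates 1 to 3 and at 4.28 CPM in WT replicate 4, the library with the lowest Myh7. Nearest to Acta1 were Triqk, the clock gene Arntl and Pdk4, a pyruvate dehydrogenase kinase that fasting induces, at 0.35, 0.39 and 0.40. Pdk4 stood at 551 CPM in WT replicate 4 and 74.7 in WT replicate 1, the extremes of Acta1, and Arntl at 12.1 and 1.42. Nearest to Gdf15 were Fam107a, Icam1 and Map3k6, at 0.24, 0.24 and 0.25. Gdf15 had only 8 to 24 counts per library, and the part of counting error in its profile was not tested.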

How the data were processed

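The deposited tables give, per the file headers, an expected count, an FPKM value and a length for each gene, under its NCBI Gene number. The expected counts are estimated reads per gene as the authors deposited them, without normalization, and a gene not listed for a library was taken as 0 there. The FPKM values are the authors' own, per kilobase and per 1000000. The submitters' processing notes name Bowtie2 and mm8, and the counting program and the use of strand are not given in the sources used here. Groups came from the sample titles.

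Of 18215 gene numbers, 18174 were matched to a symbol of GRCm38.p6. Expected counts were rounded and filtered by filterByExpr with a minimum count of 10 and a minimum total of 15, leaving 12670 genes. The comparison used edgeR's quasi-likelihood F-test (4.0.16, R 4.3.3) with TMM scaling and the group as its 1 term. P-values are two-sided and adjusted over all genes by Benjamini-Hochberg, with a threshold of 0.05. Library profiles used log2 CPM with a prior count of 2. DESeq2 (1.42.0) and limma (3.58.1) served as alternatives. Standard errors were derived as the size of the log2 fold change over the root of the F statistic. Isoform shares were compared with exact permutation tests. The 3-count floor covers counting error only. The scripts were tested on simulated counts, in 5 runs with 200 changed genes each. The edgeR test recovered 30.7% of the 1.5-fold, 78.8% of the 2-fold and 96.1% of the 4-fold changes. Of 725 calls 41 were false. Changes of the smaller sizes in the members can thus have been missed. No 2 libraries of a group agreed within sampling noise (smallest chi-square per degree of freedom 4.29).

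The members and gene lists were chosen with earlier results of these data known. The text names all members, Carns1 and, from each of 9 pathway lists, the 2 tested genes of lowest unadjusted p plus the one of highest mean FPKM. It also names the 3 genes nearest in profile to each variable member. Lrrc15, which passed over all genes, is named with the processing results. Genes of the 12 marker lists are named where a library stands apart.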

Additional observations from a re-analysis of the deposited data

Results flagged for a closer look

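Of 24 groups of 4 values examined, chance alone would mark about 1 in 20. In 2 of them 1 library lay far from the others. Nppa in TG replicate 2 stood at 324 CPM, against 56.7 to 90.2 CPM in the other TG libraries. That library also had the highest level of Myl7, Myl4 and Sln, whose part in the Nppa value was not tested. The Myh7 share of Myh6 plus Myh7 in TG replicate 4 was 0.578%, against 0.339% to 0.366% in the other TG libraries.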

How the results depend on the processing

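Nppb and Ankrd1 stayed lower and Xirp1 stayed higher in TG in all 23 alternatives, none past the threshold. The number of members called was 0 except for 1 without TG replicates 2 and 4 (Nppa) and 2 in the deeper libraries (Nppa and Acta1). Over all genes 2 were called, Carns1 and Lrrc15. That number was 15 with DESeq2, 4 without a filter, 1 in each of the 3 limma fits on FPKM, 28 with the depth class as a covariate, 59 in the deeper and 4 in the shallower libraries, 0 without the Carns1 counts, 1 with the atrial covariate (added after seeing the data) and 1 to 3 when 1 library was left out (the value was 1 in 4 cases, which left out TG replicate 2, TG replicate 4, WT replicate 2 and WT replicate 3). The replicate block gave 1 gene and no member, with Nppa at -0.75 (edgeR unadjusted p = 0.022, adjusted p = 1). Deviations of same-numbered libraries from their group means correlated from -0.28 to 0.40, so the number alone did not mark libraries that deviate together. Depth class did. TG and WT libraries of the same depth class all correlated positively (0.20 to 0.46), and those of opposite class all negatively (-0.44 to -0.18). The deviations of a group cancel out for each gene, so the negative values follow in part from the positive ones. The cause of this split was not tested.

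Signs turned as follows, on the log2 scale, and the cause was not tested. In the shallower libraries Nppa was 0.19, Acta1 -0.35 and Gdf15 -0.088. In the deeper libraries Myh7 was -0.16, Xirp2 -0.25 and Fhl1 0.022. Xirp2 was also -0.42 without TG replicates 2 and 4 and -0.17 with the atrial covariate, and Fhl1 was 0.023 with voom. With 1 library left out, Acta1 ran from -0.10 to 1.09, Xirp2 from -0.088 to 0.29 and Fhl1 from -0.066 to 0.082. The Myh7 share differed by -0.056 percentage points in the deeper libraries, and the Acta1 share by -0.84 in the shallower libraries and by -0.15 to 2.08 with 1 library left out.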
